A study of Mus musculus with 8 samples.

Results

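A set of 10 genes of innate-like and cytotoxic lymphocytes was followed in naive CD4+ T cells of mice lacking PRC2 enzymes: Zbtb16, Id2, Id3, Plac8, Klrb1c, Gzma, Gzmb, Prf1, Ccl5 and Nkg7. These 10 of the 22410 genes in the RNA files were picked by symbol, and all 10 also have a window among the 18603 promoter windows of the H3K27me3 files. The choice rested on a readout: RNA of Zbtb16, Gzma, Plac8 and Id2 was higher in the Ezh2 KO library than in WT, so that comparison of RNA is given as a description only.

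The cells were purified from lymph nodes of mice of mixed 129SV/B6 strain, and the labels give neither the age nor the number of the animals. WT cells were compared with Ezh1-/- cells (Ezh1 KO), with cells carrying Ezh2 fl/fl and CD4-cre (Ezh2 KO), and with cells carrying all of these alleles (double KO). CD4-cre is a recombinase under Cd4 regulatory sequence, so the floxed Ezh2 allele is recombined in developing T cells, whereas Ezh1-/- affects all cells of the animal. In lists of 4 values below, the order is WT, without Ezh1 (Ezh1 KO), without Ezh2 (Ezh2 KO) and without either enzyme (double KO). Here "without" names the genotype in the labels, since enzyme protein was not measured. H3K27me3 ChIP-seq and RNA-seq were made once per genotype, giving 8 libraries. With 1 library per genotype and assay there was no spread between animals, no SD and no test, and "higher" and "lower" compare single libraries. Whether more RNA came from more expressing cells or from more RNA per cell cannot be told apart in bulk samples.

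H3K27me3 is the mark that the Polycomb complex PRC2 places on histone H3 through its alternative catalytic subunits Ezh1 and Ezh2, and it is found on promoters of genes kept silent. Zbtb16 encodes PLZF, the transcription factor that directs natural killer T cells and other innate-like T cells to an effector state, and it is silent in conventional naive CD4+ T cells. Id2 and Id3 encode inhibitors that bind E proteins, which are transcription factors of lymphocyte development, and keep them off DNA. Klrb1c encodes the NK receptor NK1.1. Gzma and Gzmb encode granzymes, the proteases of cytotoxic granules, Prf1 the pore protein perforin, Nkg7 a granule membrane protein, and Ccl5 a chemokine of effector and memory lymphocytes. Plac8 encodes a small cysteine-rich protein of immune cells.

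RNA is given as the mean over the exons of a gene of the highest coverage per M reads, a height that is not divided by gene length, and H3K27me3 as the coverage per M reads summed over a window of 6 kb around the transcription start site. A single read had a height of 0.0277, 0.0142, 0.0246 and 0.0106 in the 4 RNA libraries, so RNA depth ran from 36.1 to 94.1 M reads. ChIP depth ran from 78.2 to 88.2 M reads. RNA of Ezh1 itself was 1.05, 0.196, 1.12 and 0.194, low in both libraries labelled Ezh1-/-. Ezh2 RNA was 0.925, 0.913, 1.08 and 1.17, a mean over all exons that does not show the loss of a few, so the Ezh2 deletion rests on the labels. The 10 defining genes of CD4 T cells, such as Cd3e and Cd4, were all at 1 or more in each RNA library.

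The promoters differed in their content of CG dinucleotides, a feature of the DNA to which PRC2 is commonly recruited in mammals. The Zbtb16 window held 239 CG, more than 95.4% of the 18590 windows with sequence, the Id2 window 224 and the Id3 window 176, against a median of 117. The other 7 windows held 42 (Klrb1c) to 83 (Plac8). Windows of 5 members were centred on an annotated start, those of Id2, Gzma, Gzmb and Prf1 lay within 3 bases of one, and that of Klrb1c lay 61 bases away. The 250 bases before the window centre are shown for the genes whose RNA chose the list and for Id3, the partner of Id2, read from the mm9 genome, 5′ to 3′ on the coding strand, with CG in capitals.
Zbtb16, chr9:48644051-48644300 (mm9, minus strand): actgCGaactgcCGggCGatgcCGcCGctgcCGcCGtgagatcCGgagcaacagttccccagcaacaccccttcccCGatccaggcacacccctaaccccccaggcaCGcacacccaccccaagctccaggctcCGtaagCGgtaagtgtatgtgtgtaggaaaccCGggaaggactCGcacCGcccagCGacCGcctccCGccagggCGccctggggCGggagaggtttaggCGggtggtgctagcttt
Id2, chr12:25780956-25781205 (mm9, minus strand): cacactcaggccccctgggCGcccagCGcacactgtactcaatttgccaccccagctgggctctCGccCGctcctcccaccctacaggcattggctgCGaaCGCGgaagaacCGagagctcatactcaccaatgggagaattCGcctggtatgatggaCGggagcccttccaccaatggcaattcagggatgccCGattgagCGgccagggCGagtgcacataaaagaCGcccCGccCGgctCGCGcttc
Plac8, chr5:101001265-101001514 (mm9, minus strand): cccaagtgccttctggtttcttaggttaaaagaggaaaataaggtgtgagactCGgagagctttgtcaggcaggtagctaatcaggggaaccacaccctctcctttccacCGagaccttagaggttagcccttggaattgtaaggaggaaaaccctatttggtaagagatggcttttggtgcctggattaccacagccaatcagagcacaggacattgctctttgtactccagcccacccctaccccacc
Gzma, chr13:113891190-113891439 (mm9, minus strand): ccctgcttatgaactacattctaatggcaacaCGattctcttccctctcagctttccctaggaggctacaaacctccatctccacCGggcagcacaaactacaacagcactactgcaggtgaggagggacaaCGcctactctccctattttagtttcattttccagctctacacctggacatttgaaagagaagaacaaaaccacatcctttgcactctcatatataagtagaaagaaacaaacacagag
Id3, chr4:135699162-135699411 (mm9, plus strand): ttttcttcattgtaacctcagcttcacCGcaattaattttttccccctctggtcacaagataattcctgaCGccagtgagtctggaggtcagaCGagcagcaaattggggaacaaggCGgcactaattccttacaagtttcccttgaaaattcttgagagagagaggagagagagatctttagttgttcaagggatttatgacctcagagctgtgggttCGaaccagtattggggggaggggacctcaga
Zbtb16 has 21 CG in this stretch, Id2 18, Id3 5, Gzma 3 and Plac8 2, against a median of 11. Zbtb16 and Id2 lay among the 10% of windows with the most CG, whose median H3K27me3 in WT was 15.9. Klrb1c lay among the 10% with the fewest, whose median was 12.1. Between these ends the WT median did not rise steadily with CG. With groups of 10% numbered from the fewest CG, it was highest in group 3 (16.5), which held Plac8 and Prf1. Group 2, with Gzma, Gzmb, Ccl5 and Nkg7, was at 16.0. The lowest median was 11.5, in group 7, and group 9, with Id3, was at 12.7. The E protein motif CANNTG, searched on both strands, was found in 7 of the 10 members and in 61.2% of all 17771 such stretches with a known strand. TGTGGT, a Runx motif, was found in 6 members and 12% of all stretches, and TCACAC, a T-box motif, in 3 members and 10.5%. GAAA repeated after a gap of 2 bases, an interferon response motif, was found in Gzma alone of the 10 and in 2.86% of all stretches. The motifs may overlap one another, and a match is only a run of letters.

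Zbtb16 was high in 1 of the 4 RNA libraries. Its RNA was 0.0470 in WT cells, 0.0915 without Ezh1, 0.619 without Ezh2 and 0.0430 without either. These heights correspond to 1.70, 6.44, 25.2 and 4.05 reads, so the gene was barely detected outside the Ezh2 KO. The WT value is under 2 reads in height, and since a mean height over exons is not a read count, no counting interval could be given for a ratio to it. The difference was not due to 1 exon, since the median over its 7 exons was 0.0277, 0.0904, 0.514 and 0.0298. Zbtb16 never reached 1, the minimum set for calling a 2-fold difference, and is therefore not among the genes called. On its promoter H3K27me3 was 38.0, 54.6, 35.5 and 48.8. Windows of strongly expressed genes served as background, with a median of 10.1 in WT, and Zbtb16 stood at 3.75, 5.56, 3.20 and 4.69 times the background of each library. The only other window within 100 kb, that of the serotonin receptor gene Htr3a, had a mark of 29.3, 35.1, 21.0 and 25.4. The Zbtb16 mark was highest in both Ezh1-deleted libraries, with a ratio to WT of 1.44 in the Ezh1 KO (95% counting interval 1.28 to 1.61) and 1.28 in the double KO (1.14 to 1.44). All marked windows (at least 4 times background in WT) had a median of 51.5, 64.2, 47.5 and 56.9. The mark per M reads was thus not lost from these windows in the double KO library. With these windows set equal the Zbtb16 log2 ratio to WT was 0.20 in place of 0.51 in the Ezh1 KO and 0.21 in place of 0.35 in the double KO. In the Ezh2 KO, the library with Zbtb16 RNA, the ratio was 0.933 (0.819 to 1.06). These intervals are exact (Clopper-Pearson) and cover counting error only.

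Klrb1c followed Zbtb16 in RNA but had little mark in any library. Its RNA was 0.110, 0.0940, 1.03 and 0.0498, or 3.97, 6.61, 42.0 and 4.68 reads in height. Only the Ezh2 KO library stood above a trace level. H3K27me3 was 12.5, 11.1, 9.85 and 10.6, between 0.888 and 1.23 times background. Klrb1c belongs to a family of near-identical receptor genes whose sequence differs between mouse strains, and the animals were of mixed strain, so its values are uncertain. The neighbouring Klrb1b was at 0.0600, 0.0656, 0.164 and 0.109.

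**Figure D1:**
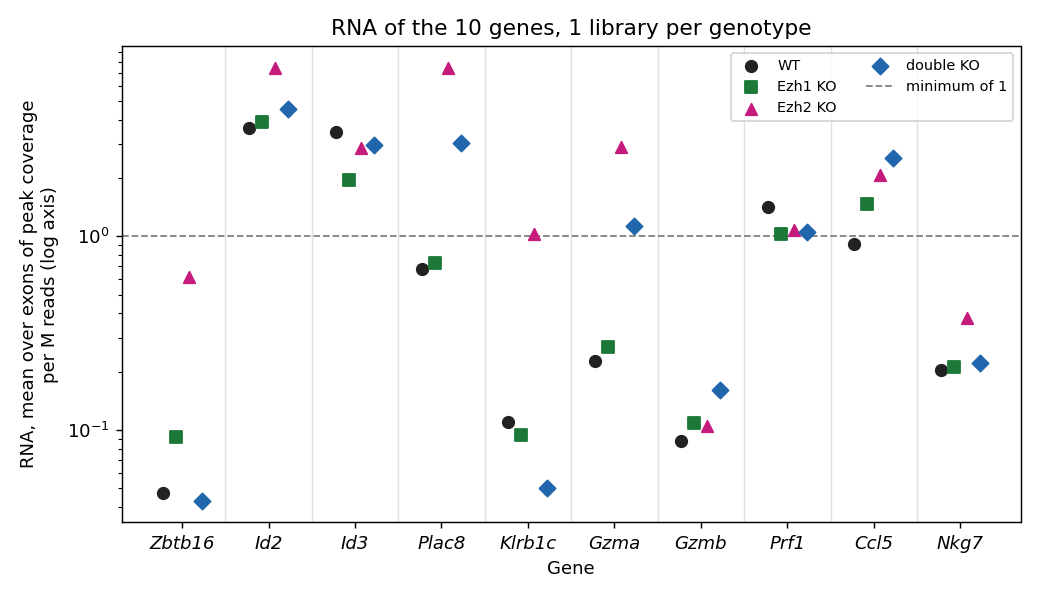
RNA of the 10 genes (mean over exons of the highest coverage per M reads, log axis), 1 point per library. Zbtb16 and Klrb1c are high only in the Ezh2 KO library (0.619 and 1.03), whereas Plac8 and Gzma are high in both libraries with the floxed Ezh2 allele.

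Id2 was highest in the Ezh2 KO, and Id3 lowest in the Ezh1 KO. Id2 RNA was 3.65, 3.91, 7.41 and 4.58, a ratio of 2.03 for the Ezh2 KO. That ratio sits at the 2-fold limit: with the median over the 3 exons, at 2.95, 3.09, 4.94 and 3.67, the log2 ratio was 0.72 in place of 1.00, and with TMM scaling 0.94. Id3 RNA was 3.48, 1.95, 2.87 and 2.96, so its Ezh1 KO value was 0.562 of WT, and the median over exons had the same order of libraries at its ends, with 3.98 in WT and 2.46 without Ezh1. A log2 ratio of -0.80 placed Id3 above only 0.5% of the 5201 genes compared in the Ezh1 KO, though short of 2-fold. The mark at Id2 was 30.3, 33.9, 33.2 and 36.1. Its ratio to WT was 1.19 (1.05 to 1.36) in the double KO, with intervals that include 1 in the other mutants. All marked windows together were also higher in the double KO, with a median of 56.9 against 51.5 in WT. At Id3 the mark was 23.7, 23.1, 15.8 and 20.3. The Id3 ratio to WT was 0.667 in the Ezh2 KO (counting interval 0.555 to 0.797) and 0.857 in the double KO (0.729 to 1.01). Both genes lie whole within their windows. The E proteins that Id2 and Id3 inhibit differed by less than 2-fold: Tcf3 RNA was between 1.16 and 1.29, and Tcf12 between 1.75 and 2.43. Runx1, a Runt factor of T cell development, was between 1.30 and 1.68, and Bcl11b, a factor of T cell identity, between 5.73 and 7.72. Of the 12 measured genes in the list of E protein and Id factors, 5 were at 1 or more, and 0 of these 5 reached 2-fold in any mutant against WT. Under 1, and named after their values were seen, Bcl11a, a factor of B cells and dendritic cells, was at 0.133, 0.113, 0.272 and 0.451, and Lyl1, a factor of blood progenitors, at 0.0653, 0.0514, 0.0561 and 0.282, both past 2-fold in the double KO against WT.

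Plac8 was the member with the largest fall in the mark, in the same libraries in which its RNA was higher. Ccl5, given below, had the same directions in these libraries with a smaller difference in the mark. Plac8 RNA was 0.680 in WT cells, 0.731 without Ezh1, 7.47 without Ezh2 and 3.04 without either. Both libraries with Ezh2 fl/fl and CD4-cre were high, 11.0 and 4.46 times WT, and both with intact Ezh2 were low. H3K27me3 at its promoter, on chromosome 5 between 100998264 and 101004264 (mm9), was 26.9, 26.5, 14.7 and 13.0. Here those same libraries were low, and their values were 1.33 and 1.25 times background against 2.65 in WT. The Ezh2 KO ratio to WT was 0.546 (counting interval 0.457 to 0.655) and the double KO ratio 0.484 (0.403 to 0.578). Compared with the Ezh1 KO, which shares no library with the Ezh2 KO comparison, the double KO had a ratio of 0.492 (0.410 to 0.585). The highest bin of the window gave 0.363, 0.272, 0.144 and 0.125. On the log2 scale with a pseudocount of 1 the change was -0.83 in the Ezh2 KO, lower than all but 0.0945% of 17982 windows, and -0.99 in the double KO, lower than all but 0.156% of 17976. The pseudocount keeps the double KO value just short of the 2-fold limit, which its plain ratio of 0.484 passes. Its neighbours within 100 kb differed less: the windows of Cops4 and Lin54 had log2 ratios of -0.22 and -0.11 in the Ezh2 KO.

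Genes with at least 2-fold more RNA and a mark at least 1.5-fold lower were rare, a limit chosen after the Plac8 values were seen. In the Ezh2 KO against WT there were 3 of 4941 genes at 1 or more in both assays (0.0607%): Plac8, the chondroitin synthase gene Chsy1 and Ube2l6, which encodes an enzyme of ISG15 conjugation. In the double KO against the Ezh1 KO there were 3 of 4707: Plac8, the MHC class II gene H2-Ab1 and Sykb, a kinase gene of B cell receptor signalling. The genes beside Plac8 were named after their values were seen. Of the 10 members, Plac8 alone met both limits in either comparison.

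**Figure D2:**
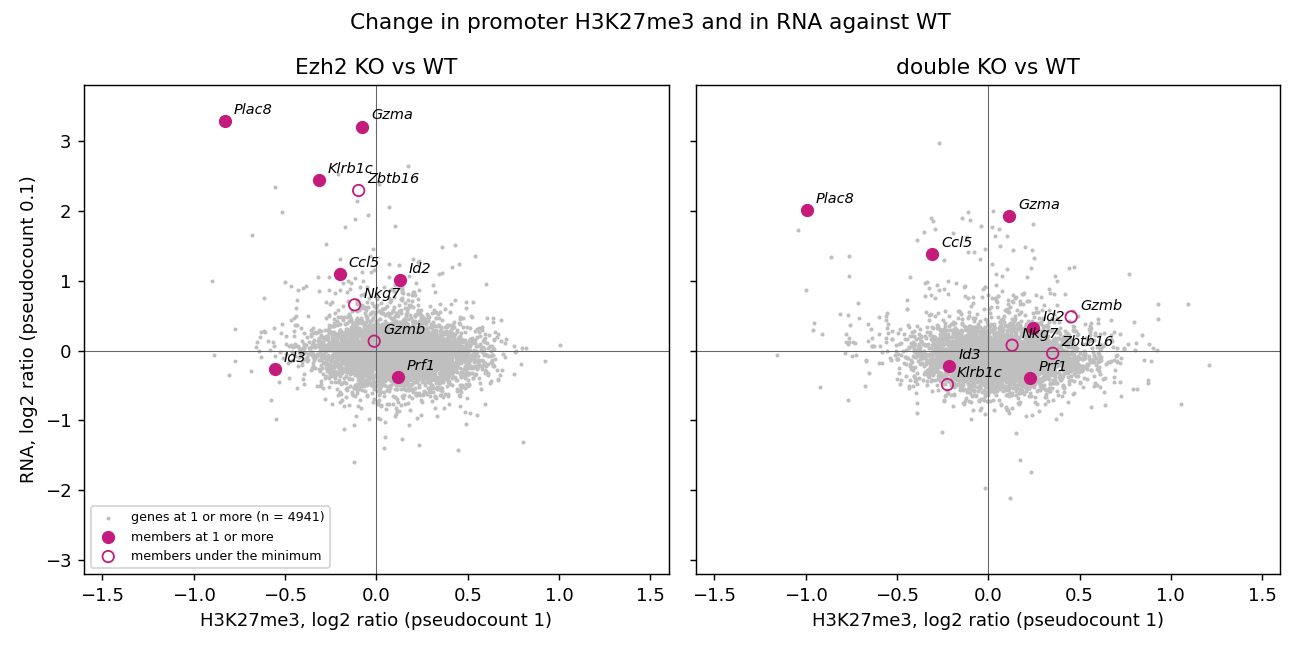
Log2 ratio to WT of promoter H3K27me3 (horizontal) and of RNA (vertical) in the Ezh2 KO (left) and the double KO (right), for all genes at 1 or more in both assays (grey) and the 10 members (open where RNA was under 1 in both libraries). Plac8 lies at lower mark and higher RNA in both panels, and Gzma at higher RNA with the mark near 0.

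Of the 4 members of cytotoxic granules, Gzma alone differed by 2-fold or more. Gzma RNA was 0.226 in WT cells, 0.270 without Ezh1, 2.90 without Ezh2 and 1.13 without either, and the last 2 were 12.8 and 5.02 times a WT value of 8.17 reads in height. As for Plac8, both libraries with the floxed Ezh2 allele were high and the other 2 low. Its mark did not differ beyond counting error: 22.1, 23.6, 20.8 and 24.0, with a ratio to WT of 0.944 (0.798 to 1.12) for the Ezh2 KO and of 1.09 (0.928 to 1.27) for the double KO.
Gzmb RNA was 0.0871, 0.109, 0.105 and 0.161, or 3.14 to 15.2 reads in height, and none of its values approached 1. Its mark was 18.1, 25.1, 18.0 and 25.2, higher in both Ezh1-deleted libraries, with ratios to WT of 1.39 in each (1.18 to 1.64 for both). With marked windows set equal, its log2 ratio was 0.15 in place of 0.45 in the Ezh1 KO and 0.32 in place of 0.45 in the double KO. Prf1 RNA was 1.43, 1.03, 1.07 and 1.06, so every mutant library was below WT by less than 2-fold. With the median over its 3 exons it was 1.12, 0.797, 1.16 and 0.757, and the Ezh2 KO was then slightly above WT. The Prf1 mark was 15.8, 20.5, 17.2 and 18.7. Nkg7 RNA was 0.204, 0.212, 0.378 and 0.220, highest in the Ezh2 KO but under 1 throughout, and its mark was 18.2, 23.9, 16.6 and 20.0. The other 22 granzyme and granule release genes, among them Srgn, a granule proteoglycan, and Ctsw, a cytotoxic cell protease, held no 2-fold difference among those at 1 or more in any mutant against WT. Ctsw was at 1.74, 1.66, 2.66 and 1.71, and Serpinb6b, a serpin, at 1.39, 1.44, 2.38 and 1.90. Serpinb9, an inhibitor of granzyme B, was at 0.785, 0.741, 1.18 and 0.978. Fasl, a death ligand, was at 1.09, 1.01, 0.611 and 0.625.

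Ccl5 was highest in the double KO. Its RNA was 0.918, 1.47, 2.08 and 2.56, so each mutant was above WT. By the mean over exons this was also so for Id2, Plac8, Gzma, Gzmb and Nkg7. With the median over the 3 exons of Ccl5 the values were 0.682, 1.58, 1.62 and 2.43. The Ezh1 KO then passed 2-fold (log2 ratio 1.10). H3K27me3 at Ccl5 was 15.5, 15.9, 13.4 and 12.4. Its ratio to WT was 0.862 (0.698 to 1.06) in the Ezh2 KO and 0.796 (0.650 to 0.979) in the double KO. None of the 12 other chemokine and chemokine receptor genes of cytotoxic cells reached 1 in any library.

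**Figure D3:**
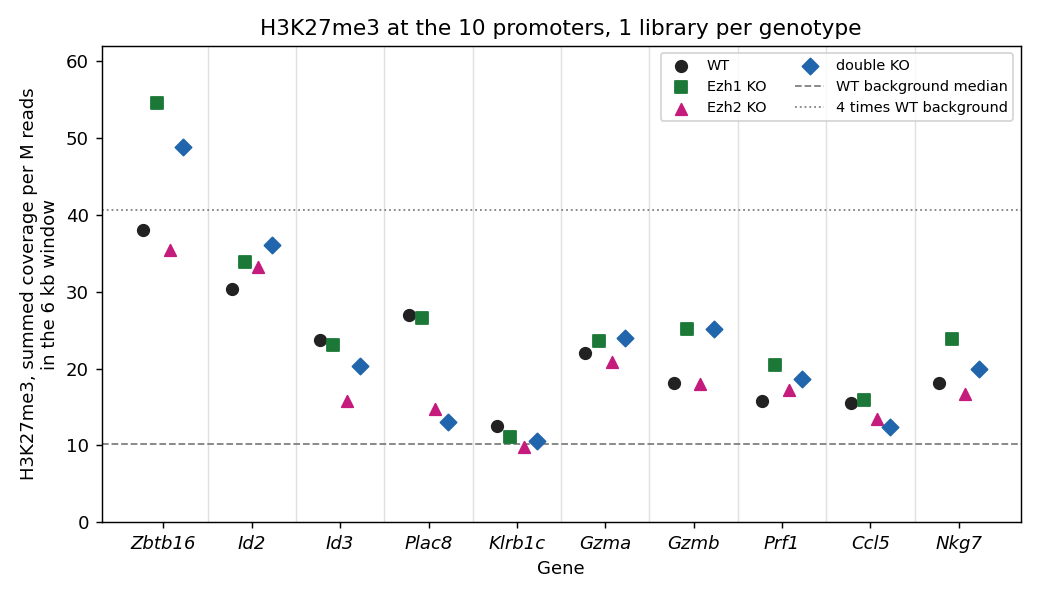
H3K27me3 of the 10 promoter windows (coverage per M reads summed over 6 kb), 1 point per library, with the WT background median of 10.1 (dashed) and 4 times that value (dotted). Zbtb16 is highest and above the dotted line in both libraries labelled Ezh1-/- (54.6 and 48.8), and Plac8 is lower in both with the floxed Ezh2 allele (14.7 and 13.0).

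Counted over all members, RNA differences of at least 2-fold were found where Ezh2 was deleted by label. A gene was counted when it reached 1 in the higher library and its log2 ratio, with a pseudocount of 0.1, was at least 1 in size. In the Ezh2 KO against WT, the comparison that chose the list, 5 members were higher (Id2, Plac8, Klrb1c, Gzma and Ccl5) and 0 lower, where 1.1% of 5347 genes were higher and 0.393% lower. Of the 10, 7 were at 1 or more, 4 of them through the Ezh2 KO value alone. In the double KO against WT, Plac8, Gzma and Ccl5 were higher and 0 members lower, where 1.07% of 5313 genes were higher and 0.169% lower. All 3 were under 1 in WT and so were counted through their higher value, and this comparison shares the WT library with the former. In the Ezh1 KO no member passed 2-fold, where 0.442% of 5201 genes did. The median log2 ratio of all 10 members was 0.09, 1.05 and 0.20 for the Ezh1 KO, Ezh2 KO and double KO against WT, beside -0.13, -0.04 and -0.10 over all genes compared. The medians of the members include those under 1, whereas the genes compared were all at 1 or more. For H3K27me3, with a pseudocount of 1, no member was counted at 2-fold against WT, where 0.0334%, 0.0334% and 0.172% of all windows were in these 3 comparisons. Plac8 in the double KO, at a log2 ratio of -0.99, was missed only through the pseudocount. The median log2 ratio of the mark over the members was 0.13, -0.11 and 0.12, beside 0.09, -0.01 and 0.05 over all windows.

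The Ezh2 genotype can be compared with Ezh1 present (Ezh2 KO against WT) and with Ezh1 deleted (double KO against Ezh1 KO), on 4 separate libraries. Plac8 and Gzma were higher in both settings: the log2 ratio was 3.28 and 1.92 for Plac8 and 3.20 and 1.74 for Gzma. These were the 2 members at least 2-fold higher in the double KO against the Ezh1 KO, where 0.726% of 5096 genes were higher and 0.157% lower. Both were under 1 in the Ezh1 KO and were counted through their double KO value, so the count supports nothing by itself. Ccl5 had 1.10 and 0.76, and Id2 1.00 and 0.22. Zbtb16 and Klrb1c instead changed sign, with 2.29 and -0.42 for Zbtb16 and 2.43 and -0.37 for Klrb1c, whose double KO values rest on 4.05 and 4.68 reads in height. Of the 59 genes at least 2-fold higher in the Ezh2 KO against WT, 45 were above 0 and 14 below 0 in the double KO against the Ezh1 KO, with 14 at least 2-fold higher there and 6 at least 2-fold lower. Directly against the Ezh2 KO, the double KO had at least 2-fold less RNA of Plac8, Klrb1c and Gzma (log2 ratios -1.27, -2.92 and -1.28), where 0.441% of 5218 genes were lower and 0.345% higher, and 0 members were higher. This comparison uses the Ezh2 KO values that chose the list, and Klrb1c reached 1 through that library alone, so these values are a description. For Zbtb16 the double KO held 0.0696 of the Ezh2 KO value. H3K27me3 at Zbtb16 was 1.38 times higher in the double KO than in the Ezh2 KO (1.22 to 1.55), at Gzmb 1.40 times (1.19 to 1.66) and at Id3 1.29 times (1.07 to 1.55). Marked windows as a whole also stood higher in the double KO, with a median of 56.9 against 47.5 in the Ezh2 KO. With the pseudocount, no member was counted at 2-fold in the mark in the double KO against the Ezh2 KO (0.0334% of windows were) or against the Ezh1 KO (0.223% were), although the plain ratio of Plac8 in the latter was 0.492.

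**Figure D4:**
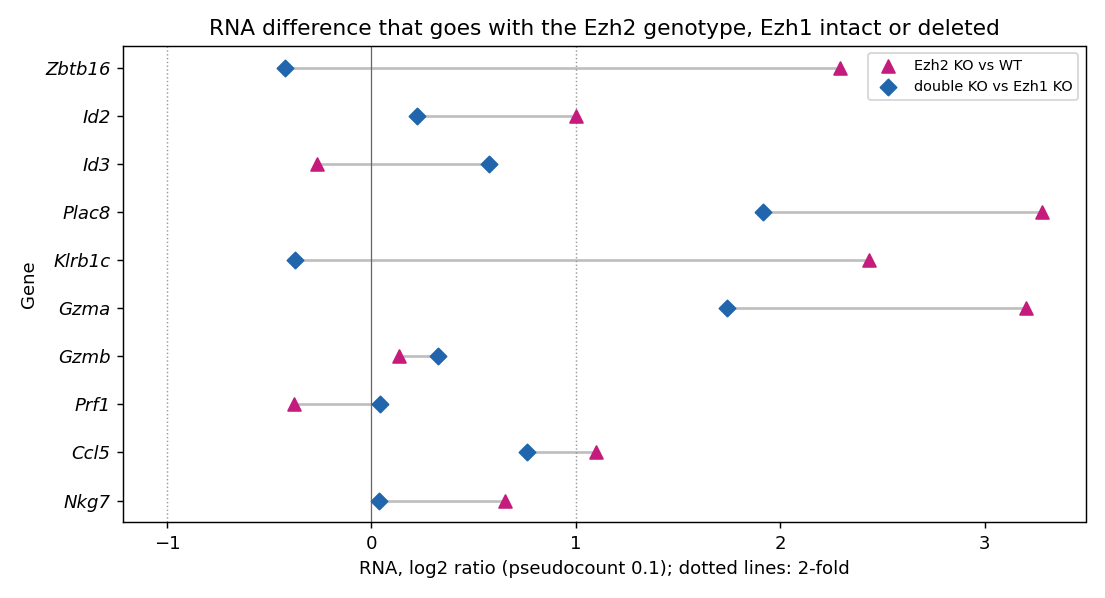
RNA log2 ratio of the 10 genes for the Ezh2 KO against WT (triangles) and the double KO against the Ezh1 KO (diamonds), which share no library. Plac8 and Gzma lie beyond 2-fold in both, whereas Zbtb16 and Klrb1c lie above 2 in the first and below 0 in the second.

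Other genes of innate-like T cells and NK cells were mostly under the limit of 1. Of 30 measured genes in the innate-like T cell list, 9 reached 1 in the Ezh2 KO or WT, and 0 of those at 1 or more were 2-fold different in any mutant against WT. Maf, a factor of effector T cells, was at 0.732, 0.785, 1.41 and 0.449. Il2rb, a receptor chain for interleukin 2, was at 1.64, 1.96, 2.22 and 1.82, and Il18r1, of the receptor for interleukin 18, at 1.95, 1.77, 1.71 and 1.25. Ly6c2, a surface protein gene of memory cells, was at 0.924, 0.949, 1.30 and 1.37. Genes under 1 that stood out after their values were seen were Cd160, an NK and innate T cell receptor, at 0.180, 0.164, 0.794 and 0.188, and Il17rb, found on a subset of natural killer T cells, at 0.142, 0.137, 0.351 and 0.103. Both were highest in the Ezh2 KO and low in the double KO, and Cd160 differed from WT by more than 2-fold in the Ezh2 KO (log2 ratio 1.68). The T-box factor genes of cytotoxic cells were at 0.0967, 0.0761, 0.231 and 0.0677 (Tbx21) and at 0.122, 0.147, 0.342 and 0.202 (Eomes), also outside the rule for naming. Of 25 NK receptor and adaptor genes, 2 were at 1 or more: Hcst, an adaptor, at 1.59, 1.20, 1.06 and 1.10, and Cd7, a surface receptor, at 1.49, 1.59, 1.10 and 1.37. Both were lowest in the Ezh2 KO, but 19 of the 25 had a log2 ratio above 0 in the Ezh2 KO against WT, with a median of 0.22 beside -0.04 over all genes compared. Among these were Klrg1, an inhibitory receptor gene named after its values were seen, at 0.107, 0.0990, 0.312 and 0.230, and other receptor genes of near-identical families, all under 1.

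Markers of other cells moved with some of these results. The 7 defining markers of NK cells were at most 0.342 in every library, none at 0, and summed to 0.519, 0.572, 0.787 and 0.628. Among them the NK receptor gene Ncr1 was between 0.0638 and 0.0853. Of the CD8 co-receptor genes, Cd8a was between 0.133 and 0.242, and Cd8b1 was 1.02, 0.878, 0.975 and 1.83. The 14 measured B cell markers, none of them at 0, summed to 8.13, 10.5, 16.5 and 26.1. Among those at 1 or more in the higher library, 8 of 8 were at least 2-fold higher in the double KO against WT. In the Ezh2 KO against WT it was 1 of 5, Igj. Under 1, and named after their values were seen, Ms4a1, Ebf1, Cr2 and Blnk also passed 2-fold in the double KO, whereas Pax5 and Igj did not. Cd79b, under 1, passed it in the Ezh2 KO (log2 ratio 1.06). The summed B cell RNA was highest in the double KO, where Ccl5 was highest too, whereas Plac8 and Gzma were highest in the Ezh2 KO. Igj, of the same B cell list, was at 0.260, 0.423, 1.79 and 0.419, so it too was highest in the Ezh2 KO. The 10 myeloid markers summed to 0.649, 0.982, 1.06 and 1.74, with the lysozyme gene Lyz2 at 1.19 in the double KO, and 2, 0, 1 and 2 of them listed at 0. Of 8 plasmacytoid dendritic cell markers, Bst2, which is also in the interferon list, held most of a sum of 5.34, 4.65, 9.0 and 10.7, and Siglech was 0.0821, 0.0739, 0.128 and 0.387. Interferon-stimulated RNA summed to 112, 126, 215 and 203 over 28 genes. Of the 27 at 1 or more in each comparison, 11 were at least 2-fold higher in the Ezh2 KO against WT and 13 in the double KO against WT. Ifi44, an interferon-induced gene, was at 0.314, 0.598, 2.29 and 3.14, and Oas1a, a sensor of viral RNA, at 0.698, 0.900, 3.05 and 2.29. The part of these cells or of interferon in the values of Plac8, Gzma and Ccl5 was not tested. Naive T cell markers summed to 133, 120, 103 and 107, with 1 of 11, Dapl1 at 17.9, 16.1, 10.4 and 4.06, at least 2-fold lower in the double KO. Effector and memory T cell markers summed to 34.8, 30.6, 31.0 and 34.1, with 2 of 14, the calcium-binding protein genes S100a4 at 3.71, 2.33, 1.16 and 2.28 and S100a6 at 2.83, 1.57, 1.02 and 1.79, at least 2-fold lower in the Ezh2 KO.

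**Figure D5:**
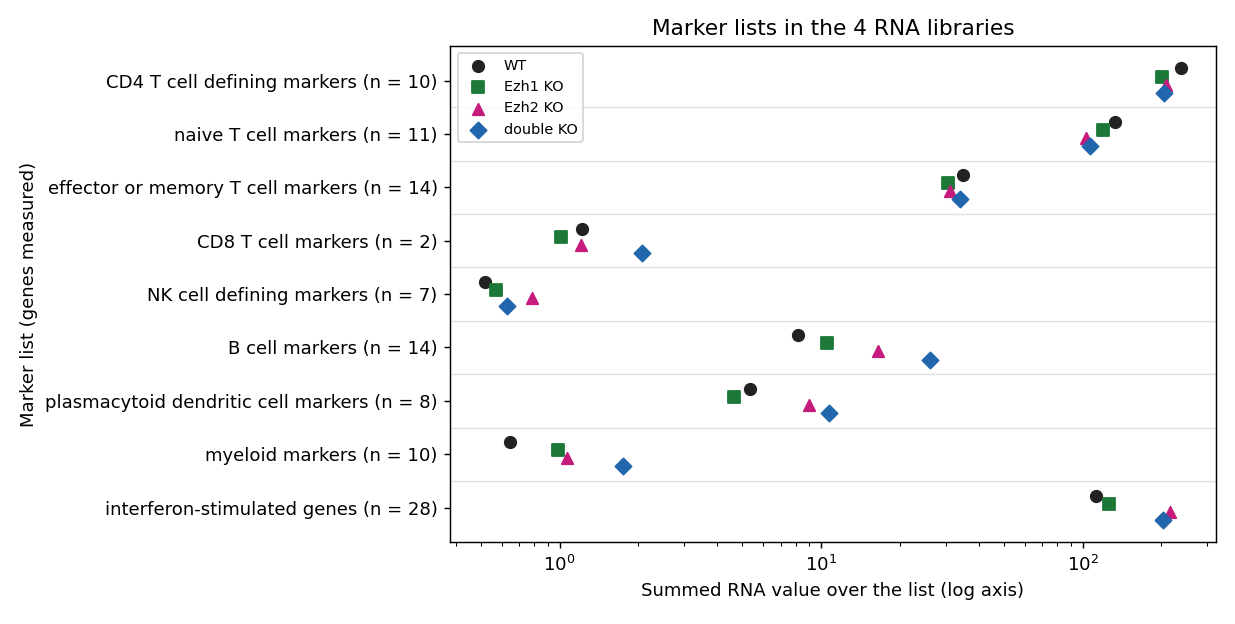
Summed RNA value of 9 marker lists in the 4 RNA libraries (log axis), 1 point per library. NK cell markers stay under 1 in each library, B cell markers are highest in the double KO (26.1), and interferon-stimulated genes are highest in both libraries with the floxed Ezh2 allele (215 and 203).

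Genes with an RNA pattern most like that of a member were sought among 5102 others at 1 or more in some library, by the distance between their 3 log2 ratios to WT. All of these ratios share the WT library, and 3 values per gene make the measure coarse. The Ezh2 KO ratio is among them, and high Ezh2 KO RNA of Plac8 and Gzma helped choose the list. The nearness of these genes to each other is therefore a description only. Nearest to Plac8 was Gzma, and nearest to Gzma was Plac8, at a distance of 0.15, followed for both by the interferon-inducible genes Ifitm3 (0.95 and 0.86) and Oasl2 (0.99 and 0.87). Among the genes searched, the nearest to Klrb1c was Igj, the antibody joining chain, 1.20 away. Zbtb16 never reached 1, so the minimum left it out of this search. Its log2 ratios to WT in the Ezh1 KO, Ezh2 KO and double KO were 0.38, 2.29 and -0.04. Those of Klrb1c were -0.11, 2.43 and -0.49. Ccl5 was nearest to Cd79b, a B cell receptor subunit, at 0.26, then to Mx2 at 0.28 and Irf7 at 0.30, both interferon-inducible. Id2 was nearest to S100a11 at 0.08 and Hspa4l at 0.16, with the near-identical histone gene Hist1h2bf between them as uncertain. Id3 lay next to another such histone gene, Hist2h3b, and to Zfp238 at 0.17. Prf1 was nearest to the ribosomal protein gene Rpl39 at 0.03.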

How the data were processed

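H3K27me3 ChIP-seq and RNA-seq of naive CD4+ T cells of 4 genotypes were used, 1 library for each genotype in each assay. The authors aligned reads to mm9 with Bowtie 0.12.7 and kept those with at most 2 errors at a single place, per the labels' protocols. Also listed in the submitters' processing notes, with no role, are bcl2fastq, Cufflinks and Cuffdiff. The deposited tables hold coverage: an area and a peak for a window at each start site, and the mean and median of exon peaks, per the file headers. A further deposited number, classed here as other, is that of exons per gene. How input was treated is not given in the sources used here, and no spike-in is named there, so only relative differences can be read.

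The height of 1 read was taken as the lowest positive peak in each ChIP file and as the commonest value among 1-exon genes in each RNA file. ChIP read equivalents assume reads extended to 151 bp in bins of 25 bp, from the lowest areas. Ratios of these carry exact 95% Clopper-Pearson intervals, which cover counting error only, as amplified reads lacking molecular identifiers are not separate molecules. No p was computed. Log2 ratios used a pseudocount of 0.1 for RNA and 1 for ChIP, a minimum of 1 in the higher library and a limit of 2-fold. Background windows are the 7077 windows that belong to the 7470 genes with the highest WT RNA. Sequences and CG counts came from the mm9 genome, and starts and strands from its GENCODE annotation. Python 3.11.15, numpy 2.4.6, pandas 2.3.3 and scipy 1.17.1 were used.

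Members and gene lists were chosen with earlier results of these data known. Named genes are all 10 members, up to 4 genes of each other list with the largest RNA log2 ratio to WT among those at 1 or more, the defining markers, and the 3 genes most like each member at 1 or more. Genes outside this rule are said to be so, and 1 gene under it is not reported here. Of the lists, 3 innate-like T cell genes, 2 interferon genes and 1 gene each of the E protein, B cell and myeloid lists were not found by symbol. Other scalings, pseudocounts, minimums, thresholds and summaries were tried as alternatives.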

Additional observations from a re-analysis of the deposited data

Results flagged for a closer look

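Zbtb16 and Klrb1c RNA stood out because the difference that goes with the Ezh2 genotype had opposite signs with and without Ezh1. For Zbtb16 the log2 ratio was 2.29 in the Ezh2 KO against WT and -0.42 in the double KO against the Ezh1 KO. For Klrb1c it was 2.43 and -0.37. Each side of each comparison is 1 library, so the difference was not tested, and the values below 0 rest on RNA of a few reads in height, 4.05 for Zbtb16 and 4.68 for Klrb1c in the double KO. The signs were the same with the median over exons, at 2.27 and -0.55 for Zbtb16 and 2.43 and -0.43 for Klrb1c.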

How the results depend on the processing

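No paired analysis was possible because each genotype has 1 library per assay. The count of members at least 2-fold different in RNA was 5 in the Ezh2 KO against WT, and 3 with TMM or median of ratios, where Id2 was under 2-fold and Klrb1c under the minimum of 1. It was also 3 with a 4-fold threshold and 2 with a pseudocount of 1, which shrinks ratios of low values by construction. A pseudocount of 1 gave 1 in the double KO against WT, the Ezh1 KO or the Ezh2 KO, in place of 3, 2 and 3. A 4-fold threshold gave 1, 0 and 1 in these comparisons, and a minimum of 2 gave 1 against the Ezh1 KO. Against the Ezh2 KO the count was 2 with TMM, median of ratios or a minimum of 2, and with the median over exons, where Plac8 was at -0.98. In the Ezh1 KO against WT the count was 0, with 2 at a 1.5-fold threshold (Ccl5 higher, Id3 lower) and 1 with the median over exons (Ccl5). For H3K27me3 the counts were 0, and every count of 1 was Plac8, lower. It passed in the Ezh2 KO against WT at 1.5-fold (1) or in the highest bin (1, log2 ratio -1.26). In the double KO against WT it passed with 1.5-fold (1), TMM (1), median of ratios (1), background windows set equal (1), marked windows set equal (1) and the highest bin (1, -1.45). In the double KO against the Ezh1 KO it passed with 1.5-fold (1), background windows set equal (1) and the highest bin (1, -1.05). For the highest bin, pseudocount and minimum were reduced in proportion to 0.0130. Against WT, TMM shifted RNA log2 ratios by up to 0.12 (double KO) and ChIP ratios by up to -0.10 (Ezh1 KO). Setting marked windows equal moved ChIP ratios more, in the Ezh1 KO from 0.51 to 0.20 for Zbtb16 and from 0.16 to -0.15 for Id2. No member counted at 2-fold changed direction under any alternative. RNA heights of a few reads limit Zbtb16, Klrb1c, Gzmb and Nkg7, and the WT value of Gzma.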

Other observations

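The other granzyme promoters near Gzmb had less H3K27me3 in both libraries with the floxed Ezh2 allele, unlike Gzmb itself. Chosen after their values were seen, the windows of Gzmn, Gzmf and Gzmc, all within 100 kb of Gzmb, were at 34.2, 23.5 and 26.1 in WT and 29.0, 21.0 and 26.8 in the Ezh1 KO. They were at 23.4, 14.5 and 20.0 in the Ezh2 KO and 21.6, 13.8 and 21.2 in the double KO. These 3 genes had RNA of at most 0.0647 in all libraries. They belong to a near-identical family and are uncertain.

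Next to Id3, the window of Asap3, 62868 bases away, was at 46.1 in WT cells, 51.8 without Ezh1, 22.7 without Ezh2 and 44.9 without either, low in the same library as Id3. This window was also chosen after its values were seen. Its RNA was at most 0.0357 in all libraries.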
